A study of Mus musculus with 24 samples.

Results

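Bone marrow mononuclear cells of Shp2 E76K mice given both ACP196 and ACP319 were compared with those of Shp2 E76K mice given ACP196 alone, which asks what inhibition of PI3K delta adds to inhibition of BTK. The 2 groups make up 12 of the 24 deposited samples. Each specimen number is carried by 2 samples, and the count table has 1 column per number, so the comparison rests on 6 of 12 specimens: 4, 5 and 6 (ACP196 alone) against 10, 11 and 12 (ACP196 plus ACP319). The other 6 are vehicle (1, 2 and 3) and ACP319 alone (7, 8 and 9). Every group is of the Shp2 E76K genotype and was treated for 3 weeks. E76K makes the phosphatase SHP2, the product of Ptpn11, more active. No group without Shp2 E76K was analysed here. The labels give no age and do not say what drives the mutant allele or whether the numbers stand for different mice. The p-values therefore cover the spread among specimens, part of which may be technical. ACP196 is acalabrutinib, a covalent inhibitor of Bruton's tyrosine kinase, and ACP319 inhibits the p110 delta isoform of phosphoinositide 3-kinase.

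BTK and PI3K delta both act below receptors of blood cells. PI3K delta makes the membrane lipid PIP3, which recruits AKT and also BTK itself, so the kinases lie on linked branches. In myeloid cells with activated SHP2, RAS and PI3K signalling below cytokine receptors is raised, and juvenile myelomonocytic leukemia is the disease that such alleles cause. Bone marrow also holds the precursors of red cells, platelets and B cells, and B cell precursors depend on signals that pass through BTK and PI3K delta.

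The libraries differed inside the ACP196 group. The marrow held strong myeloid expression in all 12 specimens, with S100a8, a neutrophil and monocyte gene, at 14058 CPM or more. Specimen 5 had 8993950 counts against 16038577 to 22154833 in the other 11 specimens, and 15.4% of its counts fell on Rn45s, the ribosomal RNA precursor, against 0.203% to 0.773% elsewhere. Specimen 6 is the 1 specimen whose title carries day 30 in place of day 24, and the labels do not say what that day is. Y-linked transcripts were present in 1 of 3 specimens of each compared group. Counts of any pair of specimens of the ACP196 group differed by a chi-square of 201 to 644 per degree of freedom, against 21.4 to 46.8 in the combination group. No pair agreed within counting noise, as one library deposited under several numbers would, and this does not show that the numbers are separate animals. Expression is given below as CPM, gene counts scaled by the library's size over the tested genes and its TMM factor, and differences as log2 of the combination over ACP196 with a standard error (SE).

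Single genes did not separate the groups after correction for 12742 tests. After Benjamini-Hochberg adjustment of quasi-likelihood p-values from edgeR, 0 of 12742 genes (0%) passed a threshold of 0.05, and the smallest adjusted p was 0.139. Of all tested genes 6553 had a higher fitted level in the combination. At an unadjusted p under 0.05 there were 798 genes higher in the combination (6.26%) and 1771 lower (13.9%). The 3 combination specimens all lay above the 3 ACP196 specimens for 1028 genes (8.07%) and all below for 858 (6.73%). The same counts gave 577 calls with DESeq2 (62 higher, 515 lower) and 2587 higher and 2386 lower with limma voom. The edgeR count turned on specimen 6. Without it, edgeR called 1582 genes higher (12.4%) and 1911 lower (15%). Of these, 3489 had the same sign in the fit of all 12 specimens, which contains the same specimens and so is no independent check. With a gene length offset as well, a setting added after seeing the data, edgeR still called 1507 of them. Without specimen 5 it called 0, and without 5 and 6 together, an alternative added after seeing the data, it called 1 in each direction. In what follows no gene or list member passed the adjusted test in the fit of all 12 specimens, and lists are described by their counts and medians. The lists were not tested as sets.

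Genes of red cell precursors were higher in the combination whether or not gene length and specimen 5 were taken into account. Of the 22 erythroid markers chosen, 21 were in the table and all 21 passed the filter on low counts. The combination was higher for 18 of the 21, with a median log2 difference of 0.90, against 0.02 over all tested genes. For 16 of 21 the specimens did not overlap, all higher (background 8.07%), and 11 of 21 had an unadjusted p under 0.05 (background 6.26%). The median was 0.91 with a gene length offset, 1.03 without specimen 5, 1.04 with both, and 1.08 without specimen 6. Without specimen 6, 8 of the 21 were called higher by edgeR and 0 lower, against 12.4% and 15% of all tested genes in that fit. Whether more erythroid cells or more erythroid RNA per cell lies behind these values cannot be told apart in bulk RNA.

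The promoters of 4 of these genes are shown, each of which carries the hexamer bound by GATA factors, the regulators of red cell genes. GATA1 and its relatives bind AGATAA, or TTATCT on the other strand. This motif was searched on both strands from 250 bases before to 50 bases after each RefSeq start site. It was found in 5 of the 15 erythroid genes with a window (33.3%) and in 8.07% of the 9691 tested genes with one. Heme synthesis genes held it in 3 of 16 (18.8%). A match is a description of these letters and not of binding. The 250 bases before the start site are given 5′ to 3′ on the gene's strand, build GRCm38.p6, with the motif in capitals.
Trim10: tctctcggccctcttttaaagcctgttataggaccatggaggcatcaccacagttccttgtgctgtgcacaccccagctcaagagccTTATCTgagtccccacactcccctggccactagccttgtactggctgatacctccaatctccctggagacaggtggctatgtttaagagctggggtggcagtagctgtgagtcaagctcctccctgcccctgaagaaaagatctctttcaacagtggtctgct
Kel: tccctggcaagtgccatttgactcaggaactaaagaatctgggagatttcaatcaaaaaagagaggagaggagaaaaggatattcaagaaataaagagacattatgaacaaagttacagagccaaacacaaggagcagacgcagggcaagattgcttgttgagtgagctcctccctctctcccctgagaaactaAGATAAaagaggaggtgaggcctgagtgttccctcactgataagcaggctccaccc
Tal1: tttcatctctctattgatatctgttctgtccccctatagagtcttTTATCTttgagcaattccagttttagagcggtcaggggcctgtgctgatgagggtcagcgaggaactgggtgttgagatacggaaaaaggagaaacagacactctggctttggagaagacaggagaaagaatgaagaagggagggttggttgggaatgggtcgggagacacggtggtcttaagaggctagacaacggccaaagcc
Epor: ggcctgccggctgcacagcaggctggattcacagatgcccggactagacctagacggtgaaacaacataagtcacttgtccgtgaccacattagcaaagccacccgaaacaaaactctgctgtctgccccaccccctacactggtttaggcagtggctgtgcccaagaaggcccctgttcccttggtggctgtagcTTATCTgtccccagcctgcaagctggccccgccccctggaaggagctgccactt
The windows lie at chr17:36869324-36869573 on the plus strand (Trim10), chr6:41704326-41704575 on the minus strand (Kel), chr4:115056176-115056425 on the plus strand (Tal1) and chr9:21963577-21963826 on the minus strand (Epor). The motif begins 163 bases before the start site in Trim10, 205 in Tal1, 56 in Kel and 54 in Epor. In 4 of the 5 erythroid genes with the motif, those shown, the combination specimens lay above every ACP196 specimen. The same held for 16 of the 21 markers of the list. The other gene with the motif, Rhd, an Rh blood group protein, had overlapping specimens, and its window is not shown. That all 4 genes shown separated the groups thus follows from the choice of windows. Whether the motif goes with the difference was not tested.

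Among the 4 genes, Trim10, an erythroid ubiquitin ligase family member, was at 43.6, 26.3 and 38.03 CPM in specimens 4, 5 and 6 and at 104, 104 and 90.04 CPM in specimens 10, 11 and 12 (log2 1.46 ± 0.47 SE). Kel, which encodes the Kell blood group protein, was at 29.6, 64.6 and 44.5 CPM with ACP196 and at 76.6, 146 and 78.3 CPM with both drugs (1.12 ± 0.42 SE). Tal1, a transcription factor of the erythroid and stem cell programmes, was at 61.4, 67.04 and 98.3 CPM against 150.4, 136 and 137 CPM (0.90 ± 0.36 SE). Combination specimens thus sat close together, with specimen 11 apart for Kel. Epor, the erythropoietin receptor, was at 31.5, 39.8 and 40.9 CPM against 64.3, 59.9 and 46.7 CPM (0.61 ± 0.38 SE).

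Membrane and cytoskeleton genes of the red cell were among those with the larger differences. Slc4a1, the anion exchanger band 3 (chromosome 11, 102348820 to 102365281, mm10), was at 209.9, 320.1 and 382 CPM with ACP196 and 881, 1015 and 874 CPM with the combination (log2 1.60 ± 0.52 SE). Ank1, the ankyrin that ties band 3 to spectrin, was at 40.4, 46.04 and 138 CPM against 210.2, 288 and 267 CPM (1.76 ± 0.58 SE). In both genes the highest ACP196 value, which was that of specimen 6, stayed below the lowest combination value. Trim58, a ubiquitin ligase of late erythroblasts, was at 1.70, 0.202 and 3.46 CPM against 7.60, 11.8 and 9.82 CPM (2.28 ± 0.64 SE), of which specimen 5 contributed 1 count.

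The vehicle specimens were spread widely for these genes. Slc4a1 was at 130.3, 879 and 309 CPM in specimens 1, 2 and 3, so vehicle specimen 2 lay within the combination's range. Over the list, the mean log2 level relative to the mean of all specimens was -1.63, 0.17 and -0.36 in the vehicle specimens, -0.73, -0.30 and -0.06 with ACP196, 0.04, 0.01 and 0.79 with ACP319 alone, and 0.68, 0.78 and 0.61 with the combination. The 3 combination specimens were above the 3 ACP196 specimens, and specimen 9 of ACP319 alone was above all 3. Median log2 differences from vehicle were 0.29 for ACP196, 0.98 for ACP319 and 1.11 for the combination.

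Regulators and surface receptors of earlier precursors differed less. Klf1, an erythroid transcription factor, was at 54.8, 73.1 and 79.95 CPM with ACP196 and 129.6, 113 and 123 CPM with the combination (log2 0.82 ± 0.41 SE). Gata1, the master regulator, was at 75.2, 207 and 72.4 CPM against 104, 98.3 and 89.7 CPM. Its specimens overlapped with specimen 5 the highest, and its log2 difference of -0.28 ± 0.42 SE became 0.42 without specimen 5. Tfrc, the transferrin receptor, was at 305, 1017 and 406 CPM against 592, 546 and 575 CPM, with a difference of -0.01 ± 0.40 SE that became 0.70 without specimen 5. The other gene with a negative difference was Nfe2, a factor shared with megakaryocytes, at a log2 value of -0.34.

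**Figure D1:**
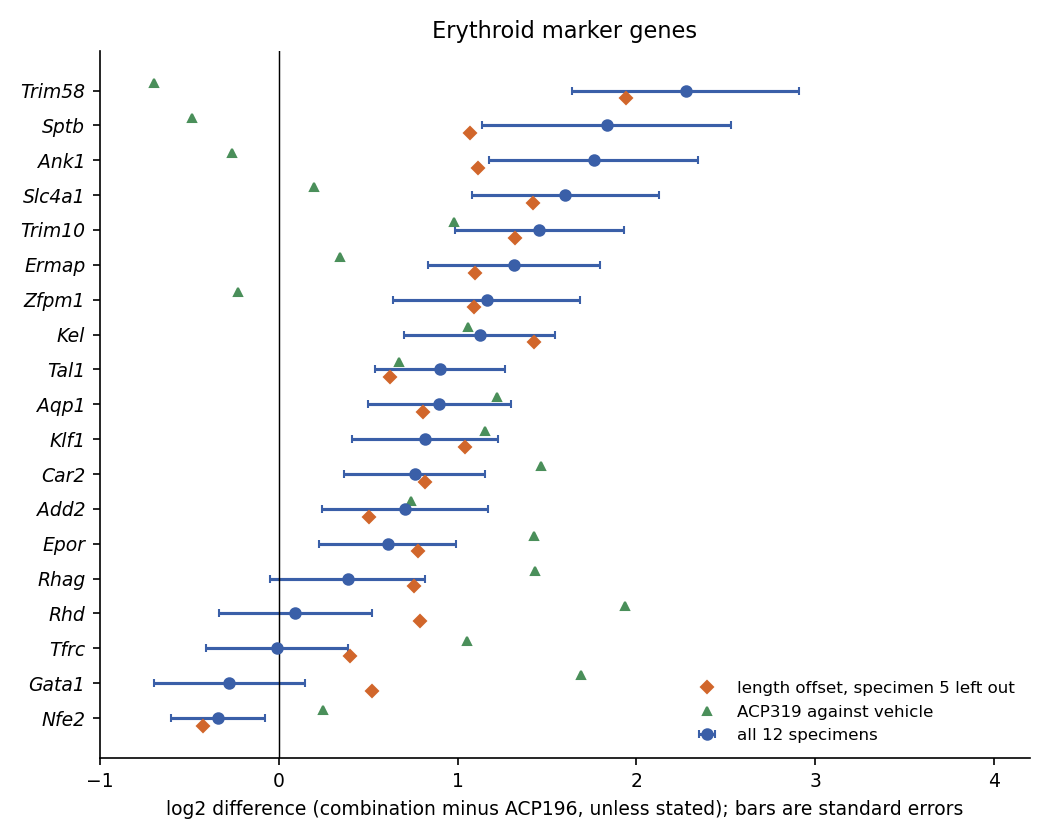
Log2 differences (horizontal) of 19 of the 21 erythroid markers tested. Circles give the combination minus ACP196 in the fit of all 12 specimens with SE bars, diamonds the same with a length offset and without specimen 5, and triangles ACP319 alone minus vehicle; 16 circles lie above 0.

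Genes of heme synthesis, which supplies the oxygen carrier of the red cell, gave a mixed picture. The combination was higher for 15 of 20, with 6 not overlapping and higher (background 8.07%) and a median log2 difference of 0.32. The median was 0.59 with the length offset and without specimen 5, and 0.18 without specimen 6. Alas2, the rate-limiting enzyme of the pathway in erythroid cells (chromosome X, 150547417 to 150570622, mm10), was at 209.5, 179.7 and 72.3 CPM with ACP196 and 418, 421 and 346 CPM with the combination (1.36 ± 0.67 SE). Fech, ferrochelatase, which inserts the iron, was at 106, 116 and 148 CPM against 295, 283 and 254 CPM (1.17 ± 0.38 SE). The first and last enzymes of the pathway were thus higher in every combination specimen than in any ACP196 specimen. Glrx5, a mitochondrial glutaredoxin for iron-sulfur clusters, went the other way, at 221, 1629.9 and 106 CPM against 177, 137 and 127 CPM. Its log2 difference was -2.15 ± 0.76 SE in the fit of all specimens, -0.14 without specimen 5 and 0.32 with the offset as well. Of 12 hemoglobin genes in the table, 1 passed the filter, so the hemoglobins are not described here.

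**Figure D2:**
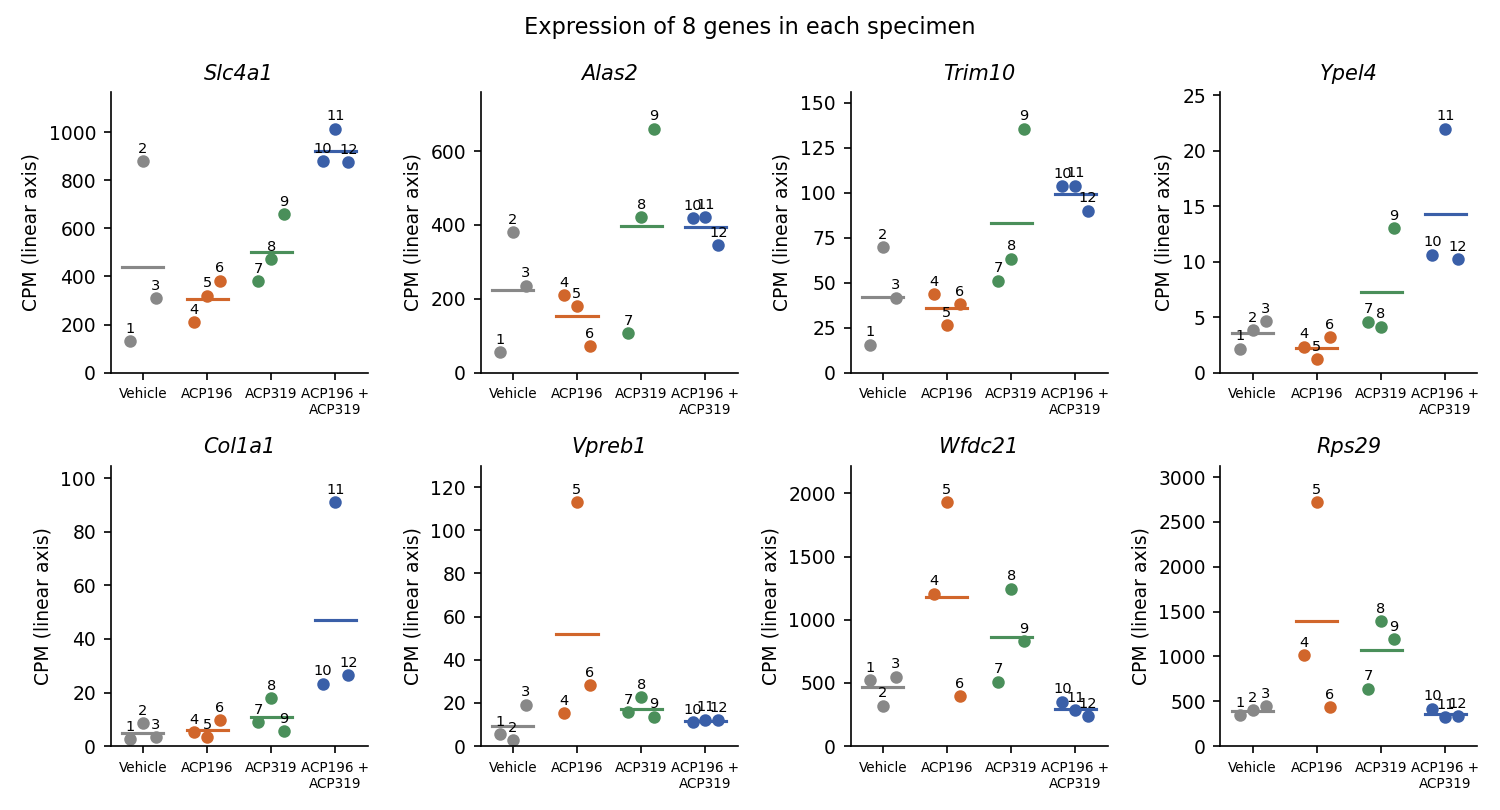
CPM of 8 genes in each of the 12 specimens, numbered, with a bar at the group mean. For Slc4a1, Alas2, Trim10, Ypel4 and Col1a1 specimens 10, 11 and 12 lie above 4, 5 and 6; for Vpreb1, Wfdc21 and Rps29 they lie below, and specimen 5 is the highest of all 12.

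Genes of bone matrix and marrow stroma were also higher, at low levels. Of 20 markers of stroma, matrix and endothelium, 16 passed the filter, and 15 of these 16 were higher in the combination with a median log2 difference of 0.98. Specimens did not overlap for 8 of them, all higher (background 8.07%), and 6 had an unadjusted p under 0.05 (background 6.26%). The median was 0.65 with the length offset, 0.71 without specimen 5, 0.49 with both and 1.45 without specimen 6. The other 4 members, Pdgfra, Col3a1, Bglap and Sp7, had too few counts to test, and a member at low level can pass the filter through the group where it is high.

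Among the 16 tested members the type I collagen chains had the smallest p. Col1a1, the alpha 1 chain (chromosome 11, 94936270 to 94951856, mm10), was at 5.31, 3.23 and 9.66 CPM with ACP196 and 23.4, 91.1 and 26.4 CPM with the combination (log2 2.90 ± 0.66 SE). Col1a2, the alpha 2 chain (chromosome 6, 4505697 to 4541543), was at 3.82, 1.01 and 7.75 CPM against 18.7, 65.8 and 24.2 CPM (3.01 ± 0.67 SE). Specimen 11 was the highest of all specimens for both chains, and specimens 10 and 12 still exceeded every specimen of the other 3 groups. Sparc, a collagen-binding matrix protein, was at 4.41, 6.66 and 4.69 CPM against 9.11, 21.2 and 8.53 CPM (1.33 ± 0.40 SE). With ACP319 alone it was at 7.38, 14.8 and 7.98 CPM, so it overlapped with the combination.

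Several other matrix and stromal genes were at low counts. Lox, the enzyme that crosslinks collagen and no member of the list, had 2 counts in the 3 ACP196 libraries and 57 in the combination, a ratio of 20.6 with a 95% interval of 5.45 to 174 that covers counting error only. It had 34 counts in vehicle and 12 with ACP319 alone. Adipoq, a hormone gene of fat cells, was at 0.212, 0 and 0.238 CPM with ACP196 and 0.712, 0.512 and 0.739 CPM with the combination. Lepr, the leptin receptor, was at 0.0531, 0.202 and 0.358 CPM against 0.380, 1.02 and 0.517 CPM. Whether the specimens held unequal shares of stromal cells was not tested. Cxcl12, the niche chemokine, was at 5.68, 7.47 and 2.62 CPM against 4.65, 14.9 and 8.13 CPM and overlapped.

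Markers of B cell precursors were lower in the combination. Of 20 markers of pro-B and pre-B cells, 18 were lower with a median log2 difference of -0.58, 7 had an unadjusted p under 0.05 (background 13.9%) and 7 did not overlap (background 6.73%). Specimens 5 and 6 held the high values: the list's mean log2 level was 0.97 in each, against -0.42 in specimen 4 and -0.15, 0.10 and 0.05 in the combination. The median was -0.60 with the length offset, -0.51 without specimen 5, -0.46 with the offset and without specimen 5, and -0.32 without 6. Without specimens 5 and 6 together it was 0.34, so the direction rests on specimens 5 and 6.

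The genes of the pre-B receptor were high in specimens 5 and 6. Vpreb1, a surrogate light chain (chromosome 16, 16868401 to 16869255, mm10), was at 15.1, 113 and 28.1 CPM with ACP196 and 11.1, 12.3 and 12.003 CPM with the combination (log2 -2.13 ± 0.72 SE). Vpreb3, a chaperone of that complex, was at 16.5, 50.7 and 33.9 CPM against 12.3, 11.99 and 11.4 CPM (-1.49 ± 0.49 SE). Dntt, the terminal transferase that adds bases at antigen receptor joints, was at 59.7, 51.5 and 95.9 CPM against 45.7, 45.8 and 32.5 CPM (-0.74 ± 0.29 SE). With the length offset and without specimen 5 the differences were -0.585 for Vpreb1, -0.82 for Vpreb3 and -0.86 for Dntt. For Vpreb1 and Vpreb3 specimen 4 was the ACP196 specimen nearest to the combination, and for Dntt specimen 6 was the highest. Sox4, a transcription factor of B precursors and stem cells, was at 16.9, 152 and 24.6 CPM against 14.3, 16.3 and 12.7 CPM, and its log2 difference of -2.14 became -0.51 without specimen 5. Cd79b, the signalling chain of the B cell receptor, was at 53.4, 139 and 92.6 CPM against 53.4, 46.4 and 52.002 CPM. Among 18 mature B cell markers 10 were higher and 8 lower with a median of 0.04, and Ly6d, their member with the smallest p, was at 81.6, 136 and 57.3 CPM against 55.4, 34.1 and 35.4 CPM. Mzb1, a chaperone of antibody-secreting cells, was at 25.4, 115 and 38.4 CPM against 24.5, 14.96 and 19.9 CPM. Cd79b, Ly6d and Mzb1 had log2 differences of -0.905, -1.13 and -1.57 in the fit of all specimens. These were -0.29, -0.30 and -0.40 with the length offset and without specimen 5.

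Neutrophil genes were lower in the combination, with differences that shrank with the length offset. Of 22 mature neutrophil markers 17 were lower (median log2 -0.58), 9 with an unadjusted p under 0.05 (background 13.9%) and 6 without overlap (background 6.73%). Of 18 markers of primary granules and promyelocytes 14 were lower (median -0.66), 8 with an unadjusted p under 0.05 and 2 without overlap, the latter near the background. With the length offset the medians were -0.26 and -0.08, and with the offset and without specimen 5 they were -0.32 and -0.25. The median lengths of these lists are 1340 and 1224.5 bases, against 2835 over all tested genes.

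Wfdc21, a small secreted protein of neutrophils (chromosome 11, 83746940 to 83752646, mm10), was at 1207, 1932 and 393 CPM with ACP196 and 351, 286 and 234 CPM with the combination (log2 -2.02 ± 0.50 SE). Camp, the cathelicidin of secondary granules, was at 26556, 73083 and 6880.1 CPM against 7595, 6941 and 4656 CPM, with specimen 6 inside the combination's range. S100a8, a subunit of calprotectin, was at 52340.0, 30000.0 and 19281 CPM against 16756, 17002 and 14058 CPM (-1.09 ± 0.44 SE). Specimen 6 was the lowest ACP196 specimen for all 3 genes and came close to the combination. Cd63, a granule membrane tetraspanin, was at 726, 2064 and 269 CPM against 298, 226 and 199 CPM. Elane, neutrophil elastase, was at 2089, 1749 and 1042 CPM against 1293, 839.6 and 910.2 CPM (-0.68 ± 0.36 SE) and overlapped. Its difference was -0.02 with the length offset.

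Of the 18 eosinophil, basophil and mast cell markers tested, 13 were lower and 5 higher (median log2 -0.29), with 3 lower at an unadjusted p under 0.05 (background 13.9%) and 3 lower without overlap (background 6.73%). The 2 with the smallest p are basophil proteases. Prss34, a basophil protease, was at 827, 906 and 624 CPM with ACP196 and 419.9, 326 and 343 CPM with the combination (log2 -1.11 ± 0.31 SE, and -0.67 with the offset and without specimen 5). Mcpt8, the basophil marker protease, was at 823, 863 and 510.4 CPM against 402, 312 and 293 CPM (-1.13 ± 0.32 SE, and -0.54). The vehicle specimens were at 505, 509.5 and 364 CPM for Prss34 and 463, 323 and 289.5 CPM for Mcpt8, below every ACP196 specimen.

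Other cell types showed smaller or divided differences. Of 20 monocyte markers 10 were higher and 10 lower (median log2 -0.05). S100a4, a calcium-binding protein of monocytes, was at 376, 529 and 119 CPM against 151, 112 and 98.5 CPM, and Vcan, a proteoglycan, at 9.56, 1.01 and 16.1 CPM against 20.03, 17.98 and 23.7 CPM. The long Vcan transcript had a difference of 1.146 in the fit of all specimens and of -0.03 with the length offset and without specimen 5. Medians were 0.11 for 17 macrophage markers, 0.02 for 18 dendritic cell markers, -0.11 for 22 T and NK cell markers, -0.03 for 18 megakaryocyte markers and -0.18 for 18 stem and progenitor markers. Adgre1, the macrophage antigen F4/80, was at 26.9, 10.1 and 43.6 CPM against 37.4, 30.4 and 55.1 CPM. Platelet genes differed in sign: Pf4, platelet factor 4, was at 49.9, 166 and 29.8 CPM against 27.4, 15.1 and 25.7 CPM, while Gp9, platelet glycoprotein IX, was at 4.62, 5.45 and 5.44 CPM against 7.98, 8.45 and 6.54 CPM.

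The drug targets themselves did not separate the groups. Btk was at 107, 83.8 and 98.9 CPM with ACP196 and 94.3, 86.5 and 89.9 CPM with the combination (log2 -0.10 ± 0.21 SE). Pik3cd, the p110 delta subunit, was at 121, 162 and 163 CPM against 146, 167 and 178 CPM (0.14 ± 0.23 SE), and its difference was -0.33 with the length offset. Ptpn11 was at 61.5, 21.4 and 101 CPM against 90.3, 105 and 112 CPM, 0.74 ± 0.41 SE in the fit of all specimens and 0.01 with the offset and without specimen 5. The drugs act on the proteins, so these transcripts do not report inhibition.

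Most components of the PI3K, AKT and mTOR pathway were higher in the combination, and they are long genes. Of 26 members 21 were higher (median log2 0.47), 4 with an unadjusted p under 0.05 (background 6.26%) and 2 without overlap, which is no more than the background of 8.07%. Their median length is 5915.5 bases. The median was 0.14 with the length offset and -0.001 with the offset and without specimen 5. Rictor, the defining subunit of mTORC2, was at 13.4, 6.06 and 28.8 CPM against 23.3, 44.3 and 39.9 CPM (1.13 ± 0.43 SE, and 0.23 with the offset and without specimen 5). Tsc1, the brake on mTORC1, was at 10.1, 10.9 and 21.5 CPM against 17.8, 27.9 and 25.8 CPM (0.74 ± 0.31 SE, and 0.15).

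FOXO factors are held out of the nucleus by AKT, and their targets are a readout of PI3K activity. Of 23 FOXO factors and targets 12 were higher and 11 lower (median log2 0.10). Foxo3 was at 9.45, 9.29 and 31.4 CPM with ACP196 and 33.8, 46.3 and 51.01 CPM with the combination (1.36 ± 0.47 SE). Its difference was 1.05 with the length offset and without specimen 5. Insr, the insulin receptor, a FOXO target and a long gene, was at 22.6, 26.1 and 38.4 CPM against 35.7, 56.8 and 57.1 CPM, 0.78 ± 0.29 SE in the fit of all specimens and 0.14 under that setting. The FOXO motif GTAAACA was in the promoter windows of 3 of 18 list members (16.7%) and of 3.05% of all tested genes with a window.

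The B cell receptor chain, in which BTK acts, was divided with 13 of 26 members higher (median log2 -0.03). Of 19 RAS pathway genes mutated in the leukemia 10 were higher (median 0.14). Mapk3, which encodes ERK1, was at 345, 479 and 198 CPM against 179, 178 and 158 CPM (-0.99 ± 0.34 SE). Braf, a kinase above it, was at 28.7, 18.2 and 48.8 CPM against 41.3, 68.6 and 69.4 CPM (0.90 ± 0.34 SE, and 0.03 with the offset and without specimen 5). These genes of one cascade, 1772 and 9728 bases long, had opposite signs.

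Transcripts that ERK induces gave a positive median. Of 24 output and feedback genes 17 were higher (median log2 0.53, and 0.38 with the length offset and without specimen 5), with 3 of them without overlap, against 8.07% of all tested genes. Fos, an immediate early transcription factor, was at 348, 244 and 378 CPM with ACP196 and 494, 873 and 565 CPM with the combination (0.99 ± 0.37 SE). Spry4, a feedback inhibitor of the cascade, was at 1.01, 1.41 and 1.87 CPM against 2.71, 2.82 and 3.73 CPM (1.10 ± 0.35 SE). With the offset and without specimen 5 the differences were 0.90 for Fos and 0.86 for Spry4. Spry2, its paralog, was at 9.98, 62.4 and 6.87 CPM against 7.93, 5.74 and 6.43 CPM, and its difference of -1.94 became -0.31 without specimen 5. Fos also belongs to 16 genes induced by cell handling, of which 12 were higher (median 0.31, and 0.51 with the offset and without specimen 5). Whether handling differed between specimens was not tested.

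Short genes were lower and long genes higher across the whole table. Over 5 equal groups of genes by length, from the shortest to the longest, the median log2 difference was -0.65, -0.16, 0.08, 0.26 and 0.43. Among the shortest genes 15.8% were higher in the combination and among the longest 78.1%. Genes with an unadjusted p under 0.05 had a median length of 4959.5 bases if higher and 1379 if lower. With the offset the 5 groups had medians between -0.10 and -0.04. With the offset and without specimen 5 the 384 higher genes had a median length of 3183 bases and the 606 lower ones 3233.5.

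The relation to length was then measured in each specimen. The slope of log2 expression on log2 length was -0.28, -0.35 and 0.18 in specimens 4, 5 and 6 and 0.09, 0.25 and 0.29 in specimens 10, 11 and 12. Group means were -0.15 ± 0.29 and 0.21 ± 0.10 (SD), and an exact permutation test of the difference of 0.36 gave a two-sided p of 0.2, where 3 against 3 specimens cannot go below 0.1. Specimen 6 had a slope inside the combination's range, and specimens 4 and 5 did not. The cause of the slopes was not tested.

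**Figure D3:**
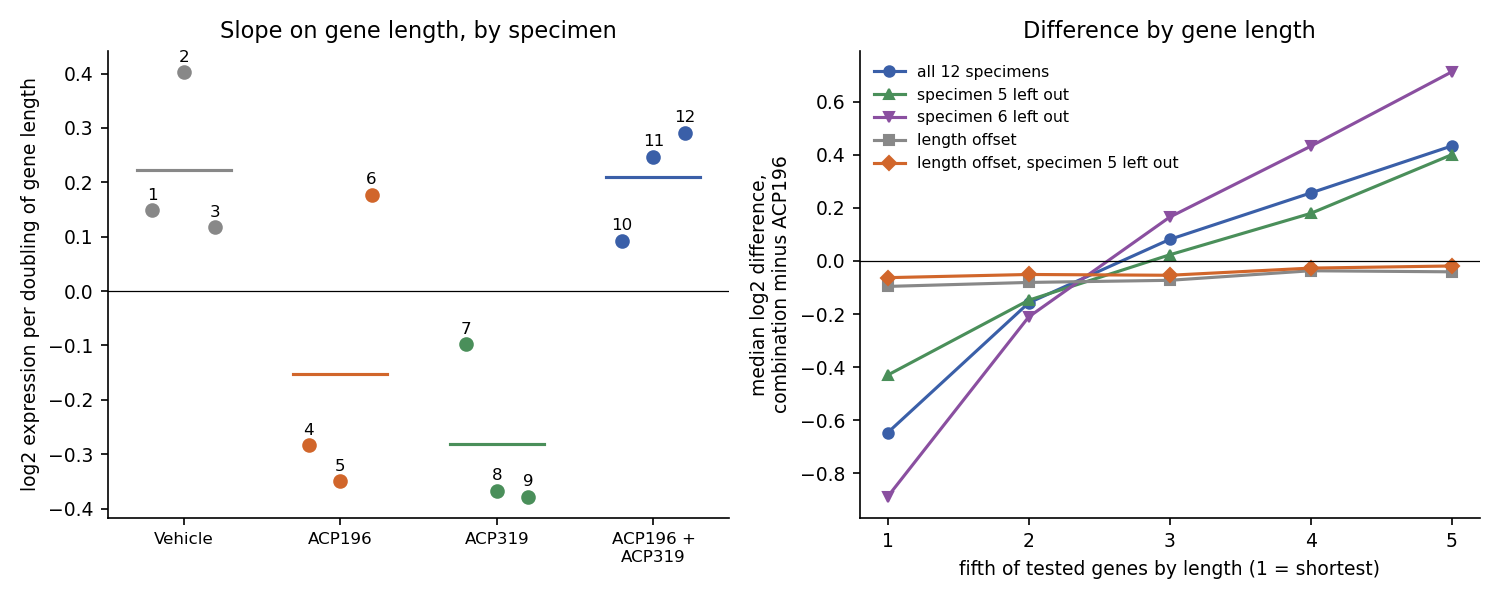
Left, slope of log2 expression on log2 gene length in each specimen, with bars at the group means; specimen 6 lies with the combination. Right, median log2 difference of 5 groups of genes by length under 5 settings. They run from -0.65 to 0.43 in the fit of all 12 specimens, from -0.43 to 0.40 without specimen 5, from -0.89 to 0.71 without specimen 6, and from -0.10 to -0.04 with the offset over all 12.

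Lists of short genes were lower. Nuclear genes of oxidative phosphorylation, the respiratory chain, have a median length of 545 bases, and all 35 that passed the filter, of 36, were lower (median log2 -1.61), 30 with an unadjusted p under 0.05 (background 13.9%) and 0 without overlap (background 6.73%). Their median was -0.52 with the offset and -0.20 with the offset and without specimen 5. Ndufa2, a subunit of complex I, was at 148, 938 and 57.5 CPM with ACP196 and 62.2, 42.7 and 44.4 CPM with the combination (-2.93 ± 0.77 SE, and -0.47). Ndufb7, another subunit, was at 285, 1335 and 97.9 CPM against 115, 77.97 and 76.3 CPM (-2.67 ± 0.70 SE, and -0.49). Specimen 6 lay in or near the combination's range in both genes.

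Ribosomal protein genes were lower too. Of the 40 members tested 39 were lower (median log2 -0.97), 26 with an unadjusted p under 0.05 (background 13.9%), and the median was -0.11 with the offset and without specimen 5. Rps29, of the small subunit, was at 1014, 2721 and 436 CPM against 419, 319.9 and 336 CPM. Rplp2, a stalk protein of the large subunit, was at 1382, 10916 and 602 CPM against 659, 468 and 474 CPM. At the long end, 21 of 30 chromatin regulators mutated in myeloid disease were higher (median 0.28, -0.30 with the offset, and 0.03 with the offset and without specimen 5). Ep300, a histone acetyltransferase, was at 32.1, 37.6 and 112 CPM against 96.99, 152 and 169 CPM (1.19 ± 0.44 SE).

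Proliferation genes had small median differences. Of 33 DNA replication genes 23 were higher with 6 not overlapping (median log2 0.12), and of 30 mitosis genes 21 were higher with 7 not overlapping (median 0.21), where 8.07% of all tested genes were higher without overlap. Cdc6, which loads the replicative helicase, was at 72.6, 72.9 and 95.8 CPM with ACP196 and 127, 136 and 115 CPM with the combination (0.65 ± 0.27 SE). Pole, the leading strand polymerase, was at 16.04, 18.4 and 60.8 CPM against 55.97, 80.99 and 72.7 CPM and overlapped. Mki67, the antigen of cycling cells, was at 231, 195 and 706 CPM against 733, 1229 and 1037 CPM (1.41 ± 0.48 SE), and Birc5, survivin, at 304, 1200.1 and 162 CPM against 215, 183 and 146 CPM. Mki67 and Birc5, 10075 and 3416 bases long, thus differed in opposite directions. With the offset and without specimen 5 their differences were 0.62 and -0.53.

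Interferon-stimulated genes were near even, with 13 of 30 higher and 17 lower (median log2 -0.08, and -0.32 with the offset and without specimen 5). Ifit3b, an antiviral protein, was at 3.98, 4.44 and 9.38 CPM with ACP196 and 2.99, 2.82 and 2.18 CPM with the combination (-1.18 ± 0.36 SE, and -1.27). Vehicle was at 12.3, 7.72 and 12.1 CPM, so all ACP196 and combination specimens but specimen 6 lay below it. Bst2, tetherin, was at 78.4, 433 and 47.6 CPM against 51.1, 30.9 and 27.8 CPM, and its difference of -2.34 became -0.77 without specimen 5. The motif GAAANNGAA, a core of the response element of these genes, was in the windows of 14 of 21 members (66.7%) and of 9.01% of all tested genes with one.

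The remaining pathway lists had medians between -0.25 and 0.24. Nfkbia, the inhibitor induced by NF-kB, was at 148, 671 and 76.9 CPM against 79.4, 70.8 and 56.8 CPM. Among 23 glycolysis enzymes 11 were higher, with Hk1, hexokinase 1, at 135, 122 and 197 CPM against 228, 255 and 254 CPM and Tpi1, triosephosphate isomerase, at 340.1, 337 and 216 CPM against 212, 179 and 194 CPM. In the 29 sterol and fatty acid genes (median log2 0.13), the 2 with the smallest p were lower: Msmo1, a sterol oxidase, was at 105, 91.1 and 39.7 CPM against 42.8, 40.2 and 35.8 CPM, and Ebp, a sterol isomerase, at 96.2, 90.9 and 55.04 CPM against 55.97, 43.3 and 44.02 CPM. Of 25 unfolded protein response genes 16 were lower (median -0.25), with Pdia6, a disulfide isomerase, at 431, 413 and 219 CPM against 233, 141 and 188 CPM. For Msmo1, Ebp and Pdia6 specimen 6 overlapped with the combination.

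Outside the lists, the genes with the smallest p among those higher in the combination included several at low levels. Ypel4, a yippee-like gene (chromosome 2, 84734204 to 84737877, mm10), was at 2.34, 1.21 and 3.22 CPM with ACP196 and 10.6, 21.98 and 10.2 CPM with the combination (log2 2.58 ± 0.53 SE, edgeR adjusted p = 0.186). Samd11 was at 2.66, 3.03 and 4.21 CPM against 10.4, 20.2 and 10.3 CPM (2.03 ± 0.44 SE). As for collagen, specimen 11 was the highest. That all 3 combination specimens stood above the ACP196 group was a condition of the rule that named these genes. Fam46c, a noncanonical poly(A) polymerase, was at 14.6, 9.49 and 13.4 CPM against 57.3, 66.7 and 74.6 CPM (2.40 ± 0.60 SE), while vehicle specimen 2 was at 99.97 CPM. Cd36, the fatty acid translocase, was at 17.2, 9.29 and 24.8 CPM against 51.7, 56.96 and 41.96 CPM (1.54 ± 0.40 SE). Fhdc1, a formin, and Ranbp10, a Ran-binding protein, had log2 differences of 1.93 ± 0.50 and 1.63 ± 0.42 SE.

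A further 4 higher genes came from the fit with the length offset and without specimen 5. Ache, acetylcholinesterase, which red cells carry on their surface, was at 6.05, 12.9 and 9.34 CPM with ACP196 and 18.8, 44.3 and 22.3 CPM with the combination. Dhrs11, a dehydrogenase, was at 42.2, 29.7 and 35.6 CPM against 73.8, 85.7 and 54.8 CPM. March3, a membrane ubiquitin ligase, was at 4.73, 1.62 and 4.05 CPM against 10.9, 10.1 and 9.09 CPM, and Chac2, a glutathione-degrading enzyme, at 13.97, 6.26 and 10.2 CPM against 19.1, 17.7 and 17.4 CPM. Their log2 differences under that fit were 1.92, 1.145, 1.36 and 0.90.

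A further set of genes was lower in the combination. Adtrp, the androgen-dependent TFPI-regulating protein, a gene of 2566 bases, was at 11.8, 16.6 and 8.66 CPM with ACP196 and 5.84, 4.15 and 3.95 CPM with the combination (log2 -1.39 ± 0.33 SE, and -1.16 with the offset and without specimen 5). Paox, a polyamine oxidase, was at 16.1, 47.1 and 8.74 CPM against 6.98, 6.20 and 5.65 CPM, and Crip1, a LIM domain protein, at 289, 1052 and 138 CPM against 121, 87.95 and 93.1 CPM. Lst1, a leukocyte transcript, Dpcd, Phpt1, a histidine phosphatase, and Supt3, a subunit of the SAGA coactivator, had log2 differences of -2.02, -1.67, -1.63 and -1.23. Specimen 5 was the highest specimen for each of these 7 genes. With the offset and without specimen 5 the last 4 were at -0.57, -0.56, -0.44 and -0.58. A further 4 lower genes came from that fit, with Mief2, an adaptor of mitochondrial fission, at -1.01, Chid1 at -0.90, Gpd1l at -0.72 and Ttc33 at -0.67.

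Capn11, a calpain protease gene (chromosome 17, 45630204 to 45659309, mm10), had the smallest p of the comparison. It had 78, 5 and 54 counts in specimens 4, 5 and 6 and 0, 0 and 1 in specimens 10, 11 and 12. That is a ratio of 189 in favour of ACP196, with a 95% interval of 33.4 to 7530 that covers counting error only (edgeR adjusted p = 0.139, and 0.0362 with the offset and without specimen 5, where it was the 1 gene called). Vehicle had 0 counts in all 3 specimens and ACP319 alone had 42, 20 and 9. Counts on this gene were thus seen in each specimen given 1 inhibitor, and the 6 specimens given neither or both had 1 count in all.

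The ACP319 difference on top of ACP196 was then compared with that of ACP319 alone. The 2 differences, the combination minus ACP196 and ACP319 minus vehicle, share no specimen. Tested as an interaction by edgeR, 1530 genes had a higher ACP319 difference with ACP196 than without it (12%) and 1992 a lower one (15.6%). With the length offset these counts were 0 and 1, and with the offset and without specimen 5 they were 230 and 300. Without vehicle specimen 2, ACP319 specimen 8 or ACP319 specimen 9 there were 0 higher and 1 lower, and without combination specimen 11 or 12 there were 0. Without vehicle specimen 1 they were 956 and 1300, without ACP196 specimen 4 they were 741 and 1454, and without specimen 6 they were 2789 and 2901.

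Across genes, which are not independent, the 2 differences ran in opposite directions. Pearson's r was -0.57 over 12742 genes and 27.4% of genes had the same sign. With the length offset and without specimen 5 r was -0.17 and 43.4% had the same sign. The groups differ in length slope in opposite ways: in the shortest group of genes the median was 0.86 for ACP319 minus vehicle and -0.65 for the combination minus ACP196, and in the longest -0.77 and 0.43.

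**Figure D4:**
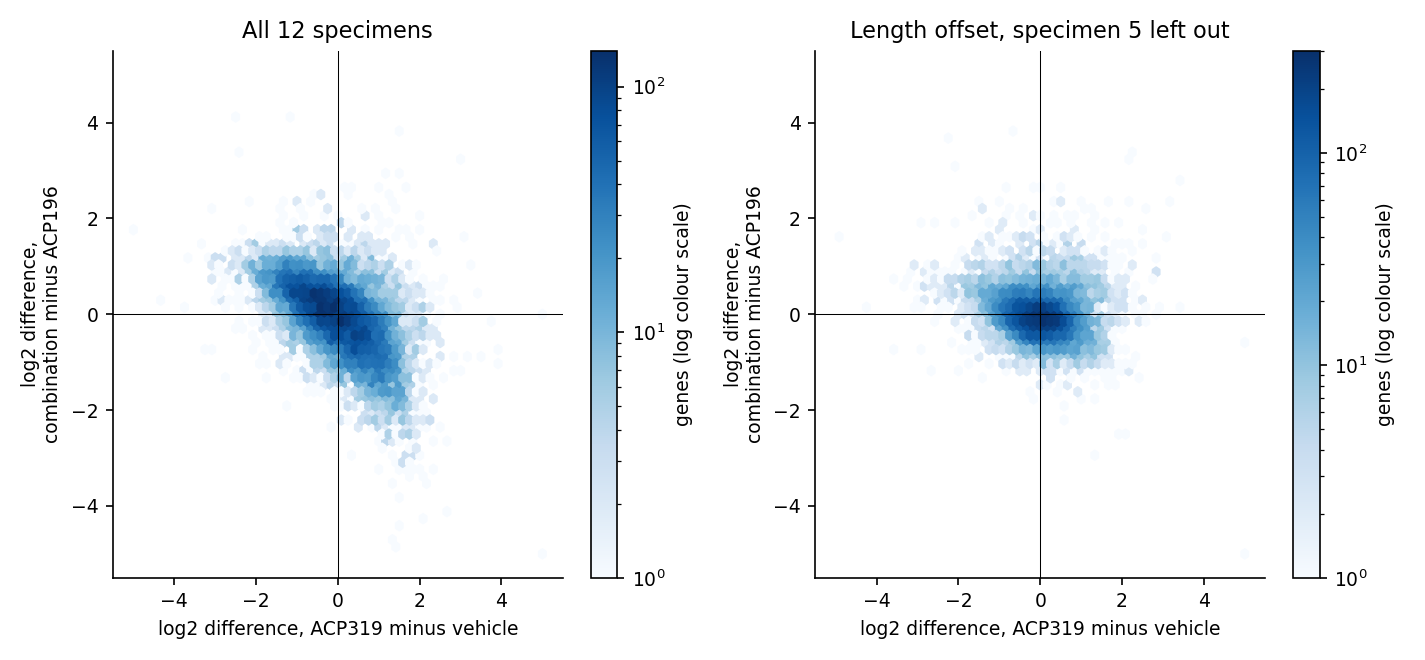
Each gene's log2 difference with ACP319 alone (horizontal) and with ACP319 on top of ACP196 (vertical), values beyond 5 drawn at 5, colour giving the number of genes on a log scale. Pearson's r is -0.57 in the left panel and -0.17 in the right.

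The shares of all tested genes called in the interaction, 12% higher and 15.6% lower, are the background for the lists. The erythroid list was higher in both settings, with medians of 0.98 for ACP319 alone and 0.90 on top of ACP196, and 1 of 21 members was called with a higher and 2 with a lower ACP319 difference, no more than the background. Of the respiratory chain genes, 35 of 35 were higher with ACP319 alone (median 1.52) and lower on top of ACP196, 34 of them called lower, and 0 with the length offset. Ribosomal protein genes gave medians of 1.37 and -0.97, with 37 of 40 called lower. PI3K pathway genes gave -0.97 and 0.47, with 15 of 26 called higher and 1 lower. Interferon-stimulated genes gave -0.89 and -0.08, with 6 of 30 called higher and 1 lower. No member of any list was called with the length offset over all 12 specimens.

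The genes with the smallest p of the interaction are named next. Hip1, a clathrin adaptor gene of 7854 bases, was at 46.6, 47.8 and 38.7 CPM in vehicle, 15.7, 11.5 and 10.6 CPM with ACP319, 12.2, 12.3 and 26.9 CPM with ACP196 and 25.1, 42.3 and 39.2 CPM with both. Arid5b, a chromatin factor, was at 12.3, 16.2 and 10.5 CPM in vehicle against 3.27, 2.20 and 2.09 CPM with ACP319, and at 5.58 ± 2.78 CPM with ACP196 against 9.08 ± 1.76 CPM with both (SD, n = 3). Either inhibitor alone thus lay below vehicle in these genes, and the combination lay above the mean of ACP196. Ccdc68 gave the opposite order, at 0.447, 0.490 and 0.691 CPM in vehicle, 4.37, 3.34 and 5.07 CPM with ACP319, 2.97, 7.27 and 1.79 CPM with ACP196 and 1.71, 1.79 and 1.70 CPM with both. Dmxl2, a regulator of the proton pump, and Hrsp12, a deaminase gene of 994 bases, had differences of ACP319 effects of 2.55 and -2.10.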

How the data were processed

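Bone marrow mononuclear cell RNA of 12 specimens was analysed. Per the labels' protocols, RNA was taken with a RNeasy Plus Micro kit and made into libraries with SMART-Seq v4 and Nextera XT, which do not mark strand, so overlapping and antisense genes cannot be told apart. The deposited values are raw counts per gene, made by the authors with STAR and featureCounts on mm10 per the submitters' processing notes, which name no version or setting. The table also gives a gene length in bases, per the file headers. The 2 samples listed for each specimen number appear as 1 column, matched to groups by the number in the sample titles.

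Of 24421 genes, 12742 passed filterByExpr (smallest count 10, total 15), and 6573 had no count. Total counts were 8993950 to 22154833 per specimen. Group means were fitted over all 12 specimens with edgeR 4.0.16 (R 4.3.3), TMM factors and the robust quasi-likelihood test, and p-values were adjusted by Benjamini-Hochberg over the 12742 genes, with calls below 0.05. An SE is the log2 difference divided by the square root of the F statistic. Genes whose counts could be split with a near-identical copy, such as ribosomal protein genes and Rn45s, are uncertain. The length offset was a spline of log2 expression on log2 length with 5 degrees of freedom in each library. Alternatives were DESeq2 1.42.0, limma 3.58.1 voom with quality weights, other scaling factors and filters, the compared specimens alone, a Y-linked covariate and leaving out each specimen. The fit was tested on simulated data.

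The gene lists and the comparison were chosen with earlier results of these data known. Genes were named by rule. Where fewer than 5 passed the threshold in a direction, these were the 8 with the smallest p among those whose mean log2 CPM was 2 or more, no overlap between groups and the same sign with the length offset and without specimen 5. Added to them were the 8 with the smallest p in the fit with the offset and without specimen 5, 2 per list, 3 per direction of the interaction, and Btk, Pik3cd and Ptpn11. The other genes named (Slc4a1, Alas2, Kel, Tal1, Epor, Ank1, Klf1, Gata1, Tfrc, Nfe2, Rhd, Lox, Sparc, Adipoq, Lepr, Cxcl12, Vpreb1, S100a8 and Elane) were chosen after their values were seen. Promoter windows came from RefSeq, matched by symbol, for 9691 of 12742 tested genes. Some genes named by the rule or in the lists are not reported here by name, while list counts and medians cover all members.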

Additional observations from a re-analysis of the deposited data

Results flagged for a closer look

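The ACP319 difference with ACP196 and the one without it differed in an interaction test by edgeR for 1530 genes in the higher and 1992 in the lower direction. Values below are the log2 difference on top of ACP196 minus the log2 difference from vehicle, for the named genes that passed the adjusted threshold of 0.05. With the length offset over all 12 specimens 0 genes passed in the higher direction and 1 in the lower. The values themselves also moved with that offset, to different degrees. S100a8 was then at 0.11, S100a4 at -0.07, Pik3cd at 0.08 and Lst1 at -0.41. Foxo3 was still at 2.71, Fam46c at 4.02 and Birc5 at -3.87. The values listed next are without the offset. Components of PI3K, receptor and RAS signalling had values with Pik3cd at 1.13, Rictor at 2.34, Tsc1 at 1.86, Foxo3 at 2.89, Insr at 2.10, Braf at 2.25 and Spry4 at 1.42. Erythroid and heme genes, with Fam46c and Ranbp10 of no list, had values with Fam46c at 3.69, Ranbp10 at 1.68, Trim58 at 2.97, Glrx5 at -4.40 and Gata1 at -1.97. B-lineage genes had values with Cd79b at -1.69, Vpreb3 at -2.15, Vpreb1 at -3.05, Ly6d at -2.50 and Mzb1 at -2.72. Myeloid and platelet genes, with Lst1 of no list, had values with Wfdc21 at -2.91, Camp at -3.67, Cd63 at -3.08, S100a8 at -1.84, S100a4 at -2.16, Vcan at 4.06, Prss34 at -1.73, Mcpt8 at -2.07, Bst2 at -3.18, Pf4 at -3.10 and Lst1 at -2.75. Genes of the respiratory chain, the ribosome and metabolism had values with Ndufa2 at -4.64, Ndufb7 at -4.04, Rps29 at -3.40, Rplp2 at -4.76, Rn45s at -6.17, Tpi1 at -1.03, Ebp at -1.33 and Pdia6 at -1.26. Rn45s was at 280310 CPM in specimen 5, against 5898 and 2176 CPM in specimens 4 and 6. Its log2 difference of the combination from ACP196 was -4.76 over all specimens and -0.17 without specimen 5. Cycle, chromatin and inflammatory genes had values with Mki67 at 2.65, Birc5 at -3.26, Pole at 2.29, Ep300 at 3.46 and Nfkbia at -2.74. The other genes had values with Adtrp at -1.59, Paox at -2.72, Dpcd at -2.58, Crip1 at -3.38, Phpt1 at -3.04, Supt3 at -1.62, Ttc33 at -1.60, Chid1 at -1.39, Hip1 at 2.85, Arid5b at 3.05, Dmxl2 at 2.55, Ccdc68 at -4.07, Hrsp12 at -2.10 and Lox at 5.37. Capn11 had a fitted value of -14.59, which depends on the prior count because vehicle had 0 counts, and is no bound.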

How the results depend on the processing

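The count of genes called between the combination and ACP196 was 0 in each direction. It was 62 higher and 515 lower with DESeq2, 2587 and 2386 with limma voom, and 0 and 1 with no filter on low counts. It was also 0 and 1 with the length offset and without specimen 5. Of the alternatives chosen after seeing the data, the length offset without specimen 6 gave 545 and 1579, and leaving out 5 and 6 together gave 1 and 1. Leaving out 1 specimen at a time gave 0 to 1582 higher and 0 to 1911 lower. The upper values are those without specimen 6, and each other specimen left out gave 0. For the interaction, 1530 higher and 1992 lower became 3410 and 3319 with limma voom, 0 and 1 with the length offset, 230 and 300 with the offset and without specimen 5, and 2701 higher without 5 and 6. Leaving out 1 specimen at a time gave 0 to 2789 higher and 0 to 2901 lower. The cause of these shifts was not tested.

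The sign changed for 7 of the 96 named genes, none of which had passed the test. Pik3cd was at -0.33 with the length offset, -0.134 with the offset and without specimen 5 and -0.455 with the offset and without 6. Gata1 was at 0.246 with limma voom, 0.523 with the offset and without 5 and 0.384 without 5 and 6. Leaving out 1 specimen at a time gave -0.532 to 0.416 for Gata1 and -0.316 to 0.7 for Tfrc. Tfrc was at 0.737 with limma voom, 0.002 with upper-quartile factors, 0.027 with no filter, 0.4 with the offset and without 5, 0.062 with the Y-linked covariate and 0.916 without 5 and 6. With the offset and without 5, Glrx5 was at 0.317, Vcan at -0.029 and Dmxl2 at -0.136. Cxcl12 was at -0.333 with the offset and without 6. The slope difference on gene length was 0.363 and ran from 0.264 to 0.528 as each specimen was left out. No paired analysis was possible because the groups share no specimen number. Specimen 5, the shallowest library, limits the precision of the ACP196 group.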
